A study of Mus musculus with 8 samples.

Results

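The genes on mouse chromosome 6 that lie within 10 Mb of Cd69 and are not Klr genes by name were followed in CD8+ T cells of wild-type and Cd69-deficient mice. Members were the rows of the gene tables whose locus overlapped that window and that reached 1 FPKM (fragments per kilobase of transcript, scaled to the library's total) in at least 2 of 8 libraries. Cd69 itself, names beginning with Klr, Nduf, Mrp, Rpl or Rps, and 8 further genes (Slc2a3, Gapdh, Tpi1, Lag3, Cd27, Usp18, Foxm1 and Cdca3) were left out. This gave 85 members, of 295 rows in the window and of 9782 genes kept across all chromosomes. Of the other 210 rows, 44 were left out by name and 166 were below the filter, 15 of them at 0 in every library.

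All libraries came from BALB/c mice and from live-sorted CD8+ T cells that bound the AH1 tetramer, a reagent that stains T cells specific for a retroviral tumour antigen. The 4 groups, with 2 libraries each, were wild-type stem-like, Cd69-deficient stem-like, wild-type term-diff and Cd69-deficient term-diff cells, where term-diff is the labels' name for the second sorted subset. The labels used here do not give the tumour, the age or number of mice, the gates, the part of Cd69 that was deleted, the cells the allele was made in or any backcrossing. Nothing in them says that the 2 libraries of a group came from separate mice, so p-values measure the spread between these libraries, which may be technical.

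Cd69 is a C-type lectin of the cell surface that appears soon after T cell activation and holds cells in tissue by drawing the sphingosine phosphate receptor S1PR1 inside. Its gene sits in the natural killer gene complex, a cluster of lectin-like receptor and ligand genes, with many unrelated housekeeping, signalling and cell cycle genes around it. A deleted allele is inherited with the DNA around it, so in a mutant strain the flanking genes can carry the sequence of the strain in which the allele was made. Which sequence these mice carried there was not tested.

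The deficiency label was checked on Cd69 first. Wild-type stem-like libraries held 22.5 and 23.4 FPKM of Cd69 and Cd69-deficient ones 3.69 and 2.42 FPKM. In term-diff cells the values were 10.4 and 12.9 FPKM in wild type and 2.21 and 2.43 FPKM in Cd69-deficient cells. Every Cd69-deficient library lay below every wild-type one, and transcript remained in all 4 of them.

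Depth, read from the width of each deposited confidence interval as a number of implied fragments, ran from 2055014 to 2588963 per library. A member had a median of 67.9 to 86.6 implied fragments per library, and 12 of the 85 had fewer than 30 in every library. Between 8911 and 9225 genes per library reached 1 FPKM. Sums of FPKM ran from 282600 to 919300. Scarna10, a small RNA that is itself a member, held 15030 to 66740 FPKM of them.

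Of the members, 62 lay on the centromeric side of Cd69 and 23 on the telomeric side. The outermost members were Adipor2 at 9.85 Mb and Dera at 8.48 Mb, and the nearest kept genes beyond the window were Dcp1b at 10.046 Mb and Plekha5 at 11.1 Mb. Just inside the filter, Eno2 and E130112N10Rik had a second-highest value of 1.15 and 1.16 FPKM. Just outside it, Plbd1 and Apobec1 had 0.991 and 0.981 FPKM. Slc6a12 passed through wild-type stem-like libraries alone and Styk1 through Cd69-deficient term-diff libraries alone. By genotype, 4 members reached 1 FPKM only in wild-type libraries (Pianp, E130112N10Rik, Lpar5 and Slc6a12) and 2 only in Cd69-deficient ones (Emp1 and Styk1). By subset, 4 did so only in stem-like libraries (D6Wsu163e, Eno2, Slc6a12 and Tuba3a) and Styk1 only in term-diff libraries. The filter favoured a difference in that direction for these members. The members' median level was 4.61 FPKM, against 4.78 over all genes kept. In the GENCODE annotation, 52 members overlapped another annotated gene, so reads of such pairs may be shared.

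All 85 members matched RefSeq (GRCm38.p6), and 13 carry a newer symbol there. C530028O21Rik is Pianp, the PILRA-associated neural protein, a membrane protein known from the nervous system that binds the inhibitory receptor PILR-alpha. Gm156 is Klrh1, a killer cell lectin-like receptor gene, so 1 member belongs to a Klr family under an older name and went against the label of the set. It was kept because the rule reads the tables' names, and results that rest on it are given with and without it. Klrh1 has close relatives in the complex, between which the authors' counting could have split reads.

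Promoter sequence is shown for 4 members. Pianp and Klrh1 passed the threshold of a genotype comparison in the main fit, while Cops7a and Emp1 did not. The 250 bases before each RefSeq start are printed on the gene's strand, from RefSeq on GRCm38.p6, the reference of strain C57BL/6J and not of BALB/c. Capitals mark any of 6 motifs searched on both strands. The GC box was searched as GGGCGG and the CCAAT box by its letters. The TATA box was searched as TATAAA and the AP-1 site as TGANTCA. The E-box was searched as CACGTG and the core of ETS sites as CCGGAAGT. Pianp lies on the plus strand (chr6:124996470-124996719), Klrh1 on the minus strand (chr6:129784271-129784520), Cops7a on the minus strand (chr6:124965513-124965762) and Emp1 on the plus strand (chr6:135362681-135362930).
Pianp: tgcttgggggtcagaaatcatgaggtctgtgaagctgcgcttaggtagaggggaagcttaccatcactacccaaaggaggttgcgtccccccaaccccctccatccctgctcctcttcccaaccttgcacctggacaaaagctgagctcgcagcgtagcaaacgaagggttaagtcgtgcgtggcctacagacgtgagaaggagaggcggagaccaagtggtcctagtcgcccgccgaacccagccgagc
Klrh1: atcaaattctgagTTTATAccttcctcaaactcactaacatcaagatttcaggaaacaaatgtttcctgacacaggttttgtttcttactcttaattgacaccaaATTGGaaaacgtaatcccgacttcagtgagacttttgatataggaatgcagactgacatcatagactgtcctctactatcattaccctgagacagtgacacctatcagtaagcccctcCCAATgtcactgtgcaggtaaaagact
Cops7a: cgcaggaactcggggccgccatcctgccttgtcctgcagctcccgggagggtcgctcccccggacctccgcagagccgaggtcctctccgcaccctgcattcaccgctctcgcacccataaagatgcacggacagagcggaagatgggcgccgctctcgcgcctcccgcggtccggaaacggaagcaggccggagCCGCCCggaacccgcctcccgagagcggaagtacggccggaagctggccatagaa
Emp1: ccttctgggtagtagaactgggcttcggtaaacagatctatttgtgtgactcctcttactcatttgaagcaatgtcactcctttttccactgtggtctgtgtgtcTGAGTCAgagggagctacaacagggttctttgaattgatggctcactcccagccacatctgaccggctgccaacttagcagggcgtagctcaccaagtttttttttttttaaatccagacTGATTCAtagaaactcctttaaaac

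The Pianp window held 13 CG dinucleotides and none of the 6 motifs. The Klrh1 window held 2 CG dinucleotides, a TATA box 237 bases upstream and CCAAT boxes 145 and 27 bases upstream. Its RefSeq start lies 8421 bases from the start in the gene tables, and which start these cells use was not tested. The Cops7a window held 29 CG dinucleotides and a GC box 55 bases upstream. The Emp1 window held 3 CG dinucleotides and AP-1 matches at 145 and 25 bases upstream.

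Across the 69 members with a promoter entry (95 windows), 58.9% of windows held a GC box, against 58.5% of 8762 windows of kept genes and 32.7% of all 32851 windows. The AP-1 letters were in 2.11% of members' windows, 4.12% of those of kept genes and 6.75% of all. The TATA letters were in 6.32%, 6.06% and 12.4%. These shares describe letters in a window and say nothing of binding.

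The first comparison asked which flanking genes differed between Cd69-deficient and wild-type cells. Pianp was lower in Cd69-deficient cells of both subsets, and Klrh1 was lower when the subsets were averaged. No member rose past the threshold in the main fit. At an unadjusted p under 0.05 in the limma test, 7 members were higher and 4 lower in stem-like cells (12.9% of members, against 7.26% of all genes). In term-diff cells 9 were higher and 7 lower (18.8%, against 15.1%), and in the average 8 and 8. Of all genes, 0.153% were called in stem-like cells (0.112% lower), 0.194% in term-diff cells (0.0818% lower) and 0.542% in the average (0.276% lower). Among members, 1, 1 and 2 were called, each of them lower. Pianp is 1 of the members that reached the filter in wild-type libraries only, so its count is not independent of the filter. A call is a limma test on log2(FPKM + 1) whose p, after Benjamini-Hochberg adjustment across the 9782 genes, is under 0.05. A difference on this scale understates the change of low genes.

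Pianp (chr6:124996720-125003097) lies 4.26 Mb on the centromeric side. Wild-type stem-like libraries held 2.63 and 4.36 FPKM of Pianp, and wild-type term-diff libraries 3.43 and 4.56 FPKM. Cd69-deficient libraries held 0.402 and 0.128 FPKM in stem-like and 0.250 and 0.276 FPKM in term-diff cells. The lowest wild-type library was above the highest Cd69-deficient one, and the subsets did not separate within a genotype.

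The group means of Pianp were 3.49 ± 1.22 and 3.99 ± 0.797 FPKM in wild type and 0.265 ± 0.194 and 0.263 ± 0.0179 FPKM in Cd69-deficient cells (SD, n = 2 each). Implied fragments were 42.1 to 76.8 per wild-type library and 0.988 to 4.70 per Cd69-deficient one, so the latter values rest on very few fragments. On the log2(FPKM + 1) scale Pianp fell by 1.81 ± 0.22 (SE) in the stem-like subset (limma adjusted p = 0.0320) and by 1.97 ± 0.22 in the term-diff subset (adjusted p = 0.0215). Averaged over subsets the fall was 1.89 ± 0.15 (limma adjusted p = 0.00208), in 4 of 4 Cd69-deficient libraries. It held on leaving out each library in turn (adjusted p up to 0.0185). Since Pianp reached 1 FPKM only in wild type, the fit without a filter bears on it too, where the averaged adjusted p was 0.0379 and those in stem-like and term-diff cells were 0.199 and 0.1002.

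The calls of Pianp within 1 subset were less stable. In stem-like cells the limma adjusted p rose to 0.113 without wild-type stem-like library 2, to 0.140 and 0.222 without Cd69-deficient stem-like library 1 or 2, and to 0.0772 and 0.0765 without Cd69-deficient term-diff library 1 or 2. In term-diff cells it was 0.126 without wild-type term-diff library 2 and 0.129 and 0.199 without Cd69-deficient term-diff library 1 or 2. With the replicate number as a block the stem-like value was 0.0548.

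Klrh1, 0.491 Mb on the telomeric side, stood at 9.92 and 10.3 FPKM in wild-type stem-like and 7.05 and 6.17 FPKM in Cd69-deficient stem-like libraries. In term-diff cells it stood at 15.5 and 15.4 FPKM in wild type and 10.2 and 7.74 FPKM in Cd69-deficient libraries. The genotypes did not overlap within either subset. Averaged over subsets the fall of Klrh1 was 0.64 ± 0.10 on the log2(FPKM + 1) scale (limma adjusted p = 0.0367). Within subsets neither difference passed, at -0.55 ± 0.14 for stem-like (limma adjusted p = 0.385) and -0.74 ± 0.14 for term-diff (adjusted p = 0.117).

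The averaged call of Klrh1 was lost on leaving out any library except Cd69-deficient term-diff library 1, with limma adjusted p from 0.0893 to 0.161. With the replicate block the adjusted p was 0.0565. Without Klrh1 the averaged comparison called 1 member, Pianp. Natural killer cells also use receptors of this family. Their defining markers Ncr1 and Klrb1c were below the filter, with Ncr1 at most at 0.375 FPKM. The summed level of 6 markers of those cells was 25.9 to 29.2 FPKM and 23.98 to 24.3 FPKM in wild-type and Cd69-deficient stem-like libraries, and 30.3 to 32.5 FPKM and 39.0 to 39.2 FPKM in the term-diff libraries. Most of that sum was Klre1 (14.1 to 36.4 FPKM), itself a Klr gene of the window, while Eomes went from 2.17 and 4.68 FPKM in wild-type to 1.32 and 1.71 FPKM in Cd69-deficient term-diff libraries. The part of such cells in the Klrh1 difference was not tested.

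Emp1, an epithelial membrane protein of the PMP22 family 6.09 Mb on the telomeric side, came next. Its values were 0.368 and 0.848 FPKM in wild-type stem-like, 3.42 and 2.02 FPKM in Cd69-deficient stem-like, 0.528 and 0.349 FPKM in wild-type term-diff and 1.24 and 1.22 FPKM in Cd69-deficient term-diff libraries. All Cd69-deficient libraries were above all wild-type ones, and only they reached 1 FPKM, so Emp1 passed the filter through the genotype where it was high. The averaged difference was 0.92 ± 0.16 on the log2(FPKM + 1) scale and missed the threshold (limma adjusted p = 0.0574). It passed with a robust fit (adjusted p = 0.00874) and with voom on implied fragments (adjusted p = 0.00686), both of which keep that filter, and without a filter the adjusted p was 0.229.

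Cops7a, a subunit of the COP9 signalosome, lies beside Pianp at 4.302 Mb. Its values were 5.47 and 8.01 FPKM in wild-type stem-like, 4.27 and 2.84 FPKM in Cd69-deficient stem-like, 7.64 and 7.48 FPKM in wild-type term-diff and 5.34 and 5.06 FPKM in Cd69-deficient term-diff libraries. Within each subset the Cd69-deficient libraries were the lower ones. The averaged difference of Cops7a was -0.61 ± 0.14 (limma adjusted p = 0.138). Cops7a passed with a robust fit (limma adjusted p = 0.0438) and with voom on implied fragments (adjusted p = 0.0194). The other 21 of 23 alternatives did not change its result. Zfp384, the member next to Pianp on its other side and named here for its position after its values were seen, had an averaged difference of 0.09 ± 0.13 and overlapping genotypes in term-diff cells.

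**Figure D1:**
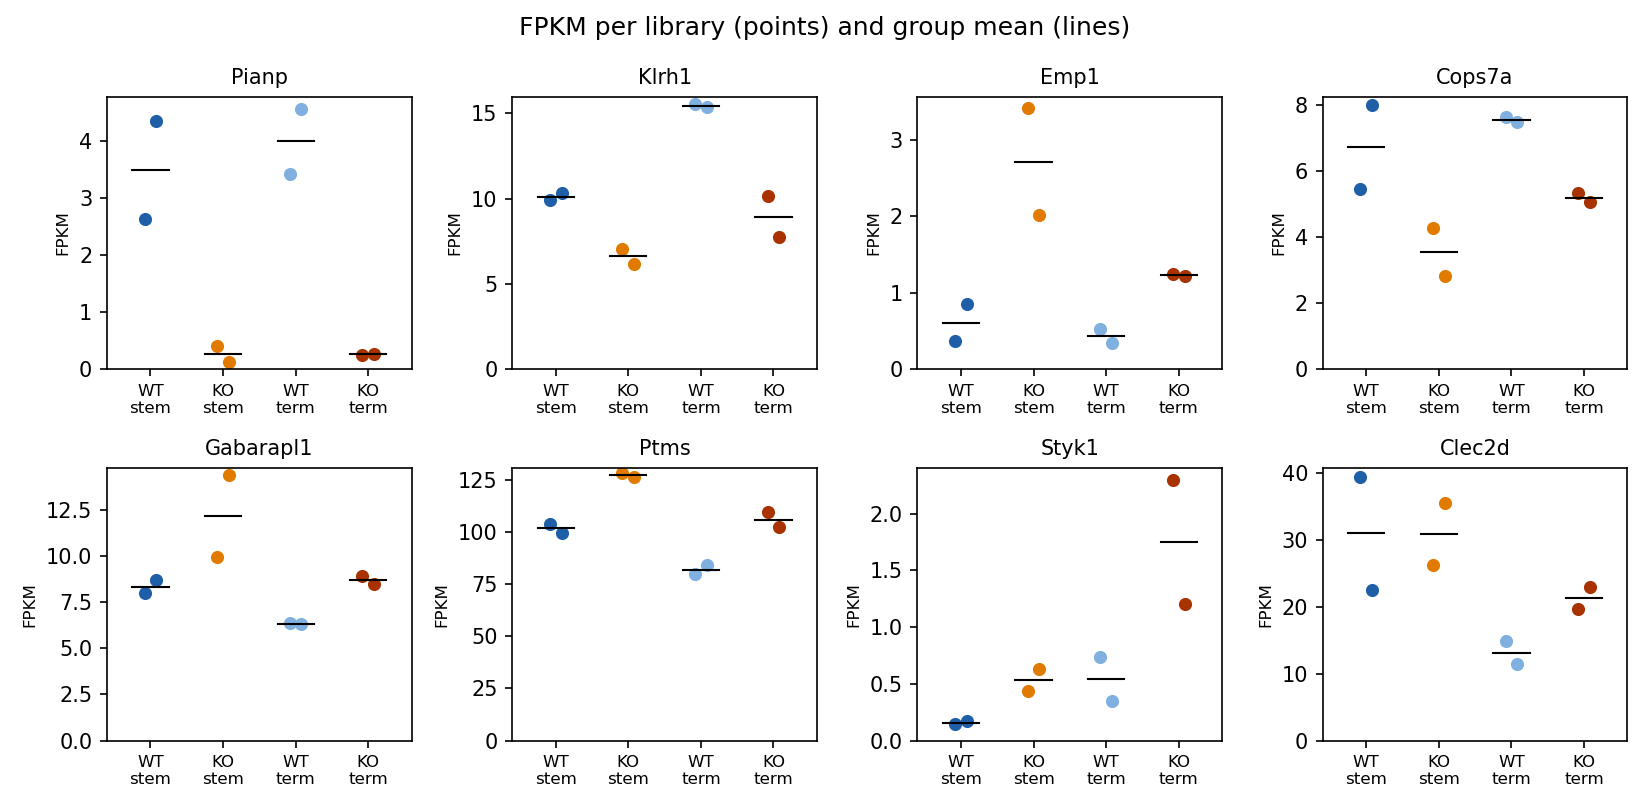
FPKM of 8 members in each library (points, 2 per group) with the mean of each group (line), WT for wild type and KO for Cd69-deficient, stem for stem-like and term for term-diff. Pianp sits between 2.63 and 4.56 FPKM in wild-type and between 0.128 and 0.402 FPKM in Cd69-deficient libraries, and Klrh1 does not overlap between genotypes within a subset.

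The other 6 members among the 10 with the smallest p in the averaged comparison had limma adjusted p from 0.167 to 0.260. Cracr2a (listed as Efcab4b), a calcium sensor of the store-operated calcium channel, had a difference of -0.45 ± 0.11. Fkbp4, a co-chaperone of HSP90, had -0.34 ± 0.10. H2aj (H2afj), a histone H2A variant, had 0.41 ± 0.10, and Styk1, a receptor-like pseudokinase, 0.61 ± 0.16. Styk1 passed the filter through Cd69-deficient term-diff libraries alone, so a higher value there was built in. Gabarapl1, an autophagosome protein of the ATG8 family, had 0.44 ± 0.11 and Ptms, parathymosin, 0.34 ± 0.10.

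Gabarapl1 is the nearest member on the telomeric side, at 0.258 Mb. It stood at 7.96 and 8.67 FPKM in wild-type stem-like, 9.92 and 14.4 FPKM in Cd69-deficient stem-like, 6.35 and 6.29 FPKM in wild-type term-diff and 8.93 and 8.45 FPKM in Cd69-deficient term-diff libraries. Cd69-deficient libraries were higher within each subset. Ptms, among the most abundant members, stood at 104 and 99.4 FPKM in wild-type stem-like, 128 and 126 FPKM in Cd69-deficient stem-like, 79.9 and 83.9 FPKM in wild-type term-diff and 109.5 and 102 FPKM in Cd69-deficient term-diff libraries. With library sums made equal, the averaged differences of Gabarapl1, Ptms and H2aj turned negative (-0.29, -0.45 and -0.30), as that scaling moved the median of all genes by -0.65.

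Other members came among the 10 smallest p within 1 subset, none past the threshold. In stem-like cells, Ncapd2, a condensin subunit, had a genotype difference of 0.69 ± 0.15 (limma adjusted p = 0.262) and Ccnd2, cyclin D2, one of 0.46 ± 0.11 (adjusted p = 0.358). Slc6a12, a betaine and GABA transporter, had -0.68 ± 0.17, a direction that its passing the filter through wild-type stem-like libraries alone had built in. Ybx3 (listed as Csda), a Y-box nucleic acid binding protein, had 0.42 ± 0.18 and Tigar (9630033F20Rik), a fructose-2,6-bisphosphatase, 0.40 ± 0.17. In term-diff cells, Acrbp, the acrosin-binding protein, had 0.75 ± 0.19 (adjusted p = 0.185), Clec2d 0.67 ± 0.26 (adjusted p = 0.302) and Grcc10 0.41 ± 0.16 (adjusted p = 0.305).

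The genotypes did not overlap in either subset, with the same direction in both, for 14 members (16.5%), against 9.94% of all genes kept. Of these, 6 were higher in Cd69-deficient cells, where 5.88% of all genes were (Adipor2, Ptms, Iffo1, Gabarapl1, Styk1 and Emp1). The other 8 were lower, where 4.06% of all genes were (Usp5, Cops7a, Pianp, Vamp1, E130112N10Rik, Cracr2a, Fkbp4 and Klrh1). Of the 14, Emp1, Styk1, Pianp and E130112N10Rik reached 1 FPKM in 1 genotype only, which favoured their direction. The split moved with the scaling, to 8 higher and 6 lower with median-of-ratios factors and to 1 higher and 14 lower with equal library sums. At an unadjusted p under 0.05, 16 members (18.8%) differed in the averaged comparison, against 12.4% of all genes. The median averaged difference was 0.014 over members and 0.001 over all genes.

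For 10 members (11.8%, against 7.85% of all genes) the genotypes did not overlap in either subset but differed in opposite directions. In 9 the Cd69-deficient libraries were the higher ones in stem-like and the lower ones in term-diff cells: Fbxl14, Wnk1, Kdm5a, Bcl2l13, Chd4, Nop2, Ncapd2, Ccnd2 and Rhno1 (5930416I19Rik). All genes leaned the same way, with 613 of the 768 such genes (79.8%) higher in stem-like and lower in term-diff cells. Ccnd2 stood at 20.1 and 21.5 FPKM in wild-type stem-like and 29.15 and 28.97 FPKM in Cd69-deficient stem-like libraries. In term-diff cells Ccnd2 stood at 15.2 and 16.4 FPKM in wild type and 13.7 and 12.2 FPKM in Cd69-deficient libraries.

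Ncapd2 stood at 7.11 and 8.11 FPKM in wild-type stem-like, 11.4 and 14.45 FPKM in Cd69-deficient stem-like, 14.2 and 16.6 FPKM in wild-type term-diff and 12.1 and 12.95 FPKM in Cd69-deficient term-diff libraries. Wild-type stem-like cells were the low group. Scarna10 lies within Ncapd2, and the share of reads between them was not tested. Grcc10 went the other way, at 53.9 and 49.6 FPKM in wild-type stem-like, 35.85 and 46.5 FPKM in Cd69-deficient stem-like, 34.2 and 36.3 FPKM in wild-type term-diff and 52.0 and 42.5 FPKM in Cd69-deficient term-diff libraries. No member passed the limma test of the interaction, which asks whether the genotype effect changed from 1 subset to the other. At an unadjusted p under 0.05, 8 members (9.41%) did, against 9.09% of all genes, of which 0.0307% were called. Voom on implied fragments called no member either.

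Distance from Cd69 was then set beside the genotype difference. The 9 members under 1 Mb away had a median absolute averaged difference of 0.350, and the 9 from 1 to 2.5 Mb one of 0.193. It was 0.0862 for the 34 members from 2.5 to 5 Mb and 0.0871 for the 33 from 5 to 10 Mb. Within subsets the order was less clear, with 0.311, 0.340, 0.162 and 0.155 in stem-like and 0.364, 0.175, 0.189 and 0.140 in term-diff cells, from the nearest bin outwards. For the averaged difference, the 358 kept genes of chromosome 6 outside the window had 0.105 and the 9317 on other chromosomes 0.108. The nearest bins are thin, under 20 genes each, and their median standard errors were larger too, at 0.178 and 0.137 against 0.117, 0.112, 0.111 and 0.111 in the farther bins, chromosome 6 and the rest. The part of that spread in the size of the differences was not tested.

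At an unadjusted p under 0.05 were 44.4%, 33.3%, 17.6% and 9.09% of the members in these bins, from the nearest outwards, with 10.6% of chromosome 6 outside the window and 12.3% elsewhere. Calls in the averaged comparison were 1 (Klrh1), 0, 1 (Pianp) and 0. Without Klrh1 the nearest bin held 8 members, a median of 0.344 and no call. On chromosome 6 outside the window, 0 genes were called by limma in any of the 3 genotype comparisons, and 17, 54 and 38 had an unadjusted p under 0.05 in stem-like, term-diff and averaged. No p is given for this order, since members of a bin share position.

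**Figure D2:**
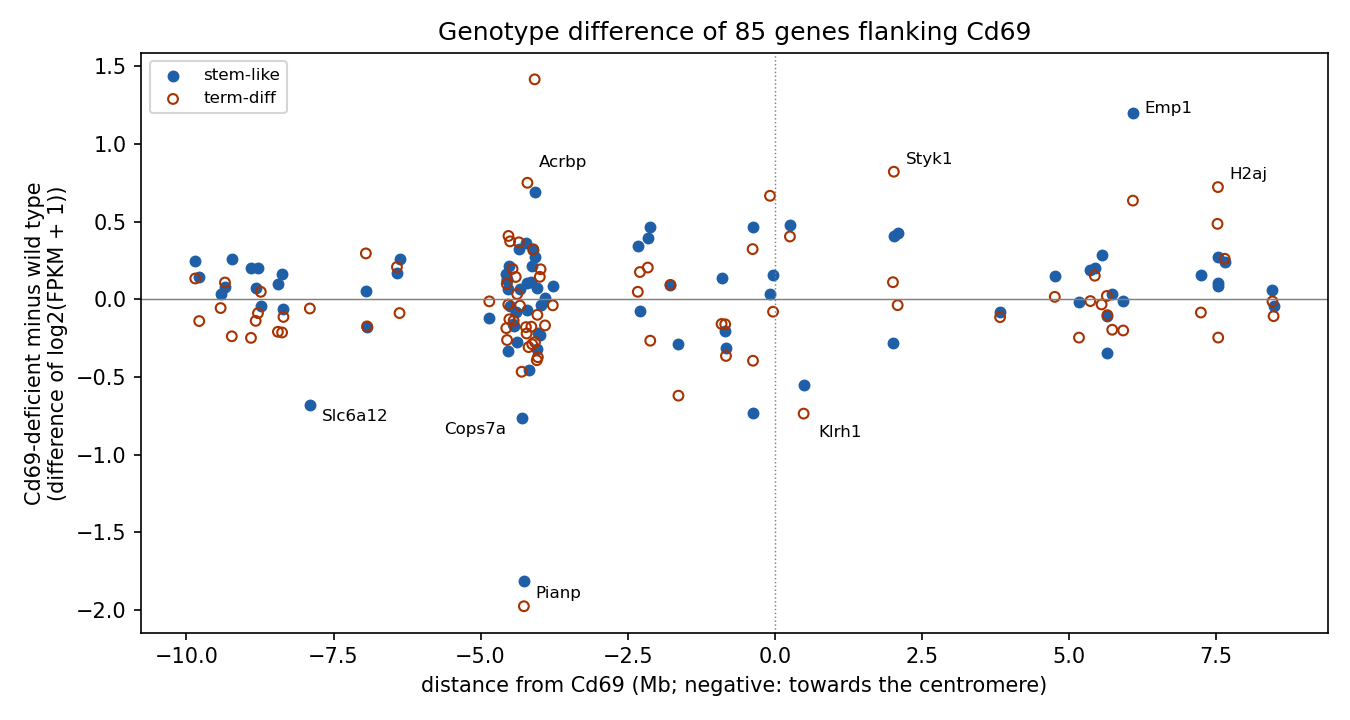
Genotype difference (Cd69-deficient minus wild type, log2(FPKM + 1)) of each member against its distance from Cd69 in Mb, filled points for stem-like and open points for term-diff cells. Pianp, 4.26 Mb on the centromeric side, is the lowest in both subsets. In stem-like cells 78 and in term-diff cells 76 of the 85 members lie within 0.5 of 0. The highest open point is Scarna10, at 1.41 ± 2.21 (SE).

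**Figure D3:**
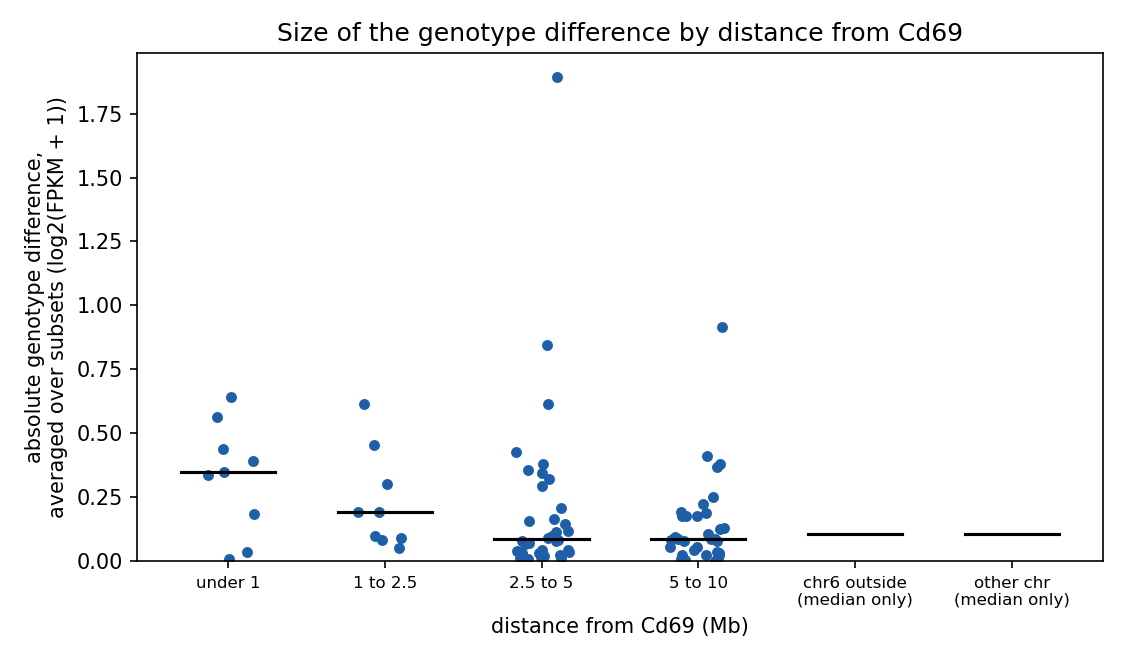
Absolute genotype difference averaged over subsets (log2(FPKM + 1)) of the members in each distance bin (points) and the bin's median (line), with medians alone for chromosome 6 outside the window and for other chromosomes. The median falls from 0.350 under 1 Mb to 0.0862 from 2.5 to 5 Mb, and the 2 nearest bins hold 9 members each.

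Of the members under 1 Mb, 7 lie on the centromeric side. Clec2d, 0.081 Mb away, encodes a lectin-like ligand of the inhibitory receptor NKR-P1B and is the most abundant of them. It stood at 39.4 and 22.6 FPKM in wild-type stem-like, 26.3 and 35.6 FPKM in Cd69-deficient stem-like, 14.9 and 11.4 FPKM in wild-type term-diff and 19.7 and 23.0 FPKM in Cd69-deficient term-diff libraries. The genotypes overlapped in stem-like cells only, and the averaged difference of Clec2d was 0.35 ± 0.19 (limma adjusted p = 0.493).

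Clec2i, the ligand of NKR-P1F, lies 0.370 Mb away and stood at 5.115 and 2.17 FPKM in wild-type stem-like, 1.28 and 2.07 FPKM in Cd69-deficient stem-like, 1.296 and 2.14 FPKM in wild-type term-diff and 1.505 and 0.663 FPKM in Cd69-deficient term-diff libraries. The spread within groups was as wide as the gap between them (averaged difference -0.56 ± 0.24, limma adjusted p = 0.391). BC035044, at 0.376 Mb, overlaps Clec2i and had 0.39 ± 0.19 (adjusted p = 0.461). The nearest member, 2310001H17Rik at 0.029 Mb, had 0.04 ± 0.23 (adjusted p = 0.964).

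Fkbp4, 0.829 Mb away, stood at 13.7 and 13.1 FPKM in wild-type stem-like, 9.05 and 12.4 FPKM in Cd69-deficient stem-like, 15.45 and 14.3 FPKM in wild-type term-diff and 11.6 and 11.04 FPKM in Cd69-deficient term-diff libraries, with no overlap within a subset. Itfg2, a subunit of the KICSTOR complex, had an averaged difference of -0.18 ± 0.18 at 0.842 Mb. Rhno1, a partner of the RAD9-HUS1-RAD1 clamp, had -0.01 ± 0.08 at 0.904 Mb. Of 21 rows on a list of C-type lectins outside the Klr names, only Clec2d and Clec2i were kept. The highest value among the rest of that list was 0.456 FPKM, in Olr1. Klrh1, a member under its older name Gm156, was not on the list.

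Among the genes left out by name, 11 Klr genes of the window were kept by the filter. Of these 5 were called in the averaged comparison, with Klrd1, Klrc1 and Klrc2 higher and Klrc3 and Klra3 lower in Cd69-deficient cells.

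The second comparison asked which flanking genes differed between the sorted subsets. In wild-type cells 5 members were higher in the term-diff subset and 7 were lower (14.1%, against 13.1% of all genes, 7.24% higher and 5.83% lower). In Cd69-deficient cells 2 were higher and 5 lower (8.24%, against 9.45%, 3.88% higher and 5.56% lower). Both shares are near the background. Of the calls, 5 were shared in the same direction: Tnfrsf1a and Arhgdib higher, and 4930417O13Rik, Cd9 and Etv6 lower in term-diff cells. They make up 41.7% of the wild-type and 71.4% of the Cd69-deficient calls, against 50.1% and 69.3% over all genes, where 640 calls were shared. The comparisons share no library.

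The wild-type count fell on leaving out any 1 library, and the Cd69-deficient count on leaving out any 1 Cd69-deficient library. The share of all genes called fell in each of these fits as well, so the loss of calls was not particular to the members. Markers of other cells moved with the subset too. The 2 kept markers of tumour and stroma (Pecam1 and Igfbp7) were lower in term-diff cells of both genotypes. The other 6 of that list were below the filter, the highest being Epcam at 0.715 FPKM. Over that list, summed levels were 27.8 to 35.3 FPKM in stem-like and 8.83 to 11.7 FPKM in term-diff libraries. Most of that sum came from the 2 kept markers.

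Among markers of CD4 and regulatory T cells, 3 of 6 kept were lower in term-diff cells in each genotype and 1 was higher in wild type. Their summed level was 117 to 126 FPKM in stem-like and 78.3 to 119 FPKM in term-diff libraries. Most of that sum was Ctla4 (62.4 to 107 FPKM). In the averaged genotype comparison 1 of the 6 was called, lower in Cd69-deficient cells. Of 5 kept myeloid markers, Fcer1g, an Fc receptor chain, was higher in term-diff cells of both genotypes and Cst3 lower in wild type. Fcer1g went from 1.53 and 1.18 FPKM to 29.75 and 27.1 FPKM in wild type and from 1.02 and 0.520 FPKM to 17.1 and 21.1 FPKM in Cd69-deficient cells. Lyz2 stayed at or under 3.11 FPKM and Tyrobp at or under 1.47 FPKM. Foxp3 reached at most 1.14 FPKM and no B cell marker was kept, the highest being Cd22 at 0.504 FPKM. The part of these cells in the members' differences was not tested. In bulk samples, fewer cells of a type and less RNA per cell cannot be told apart. The 8 CD8 T cell markers were kept in full. Their summed level was 1028 to 1186 FPKM in wild-type and 1203 to 1241 FPKM in Cd69-deficient stem-like libraries, and 1045 to 1112 FPKM and 1383 to 1555 FPKM in the term-diff libraries.

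Tnfrsf1a, TNF receptor 1, stood at 1.90 and 1.98 FPKM in wild-type stem-like and 5.11 and 5.45 FPKM in wild-type term-diff libraries. In Cd69-deficient cells it stood at 2.56 and 1.45 FPKM in stem-like and 5.10 and 4.12 FPKM in term-diff libraries. Every term-diff library was above every stem-like one. Tnfrsf1a rose by 1.09 ± 0.19 on the log2(FPKM + 1) scale in wild type (limma adjusted p = 0.00770) and by 0.92 ± 0.19 in Cd69-deficient cells (adjusted p = 0.0198). On leaving out 1 library the Cd69-deficient call was lost in 3 of 8 cases (adjusted p up to 0.112).

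Arhgdib, a signalling regulator known from blood cells, was among the most abundant members. It stood at 42.9 and 51.8 FPKM in wild-type stem-like, 52.25 and 59.65 FPKM in Cd69-deficient stem-like, 85.75 and 65.7 FPKM in wild-type term-diff and 95.3 and 85.2 FPKM in Cd69-deficient term-diff libraries. Arhgdib was higher in term-diff cells by 0.66 ± 0.18 in wild type (limma adjusted p = 0.0441) and 0.68 ± 0.18 in Cd69-deficient cells (adjusted p = 0.0486). These calls were lost in 7 and 6 of 8 leave-one-out fits, with adjusted p up to 0.199 and 0.271.

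4930417O13Rik, a gene with no function given here, showed the largest subset difference among wild-type calls. It stood at 15.2 and 15.75 FPKM in wild-type stem-like, 12.4 and 13.7 FPKM in Cd69-deficient stem-like, 4.98 and 4.69 FPKM in wild-type term-diff and 6.25 and 4.73 FPKM in Cd69-deficient term-diff libraries. The subsets did not overlap in either genotype. 4930417O13Rik fell by 1.499 ± 0.14 in wild type (limma adjusted p = 0.000476) and by 1.12 ± 0.14 in Cd69-deficient cells (adjusted p = 0.00223). Both calls held in 8 of 8 leave-one-out fits.

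Cd9, a tetraspanin of the cell surface, fell by 0.87 ± 0.21 in wild type (limma adjusted p = 0.0327) and by 0.99 ± 0.21 in Cd69-deficient cells (adjusted p = 0.0240). Its stem-like libraries held 2.985 to 4.35 FPKM and its term-diff libraries 0.999 to 1.85 FPKM, with no overlap. Etv6, a transcriptional repressor of the ETS family, fell by 0.55 ± 0.14 (adjusted p = 0.0380) and 0.68 ± 0.14 (adjusted p = 0.0210). Its stem-like libraries held 4.47 to 5.98 FPKM and its term-diff libraries 2.86 to 3.325 FPKM. The wild-type calls of Cd9 and Etv6 were lost in 5 and 8 of 8 leave-one-out fits and the Cd69-deficient calls in 3 and 4, with adjusted p up to 0.181.

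The remaining wild-type calls were Ncapd2, Klrh1 and Tapbpl, higher in term-diff cells, and Clec2d, Slc6a12, Eno2 and H2aj, lower. Ncapd2 rose by 0.93 ± 0.15 in wild type (limma adjusted p = 0.00551), against -0.04 ± 0.15 in Cd69-deficient cells (adjusted p = 0.904). Clec2d fell by 1.14 ± 0.26 in wild type (adjusted p = 0.0263), against -0.50 ± 0.26 in Cd69-deficient cells (adjusted p = 0.284). The difference between genotypes passed the interaction test for neither gene. The Ncapd2 call held in 8 of 8 leave-one-out fits and the Clec2d call was lost in 3 (adjusted p up to 0.143).

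Klrh1 rose by 0.56 ± 0.14 in wild type (limma adjusted p = 0.0355). Tapbpl, a peptide editor for MHC class I, rose by 0.42 ± 0.11 (adjusted p = 0.0402), from 11.5 and 11.9 FPKM to 15.85 and 16.2 FPKM. H2aj fell by 0.59 ± 0.14 (adjusted p = 0.0323) in wild type, while its Cd69-deficient libraries held 7.98 and 8.32 FPKM in stem-like and 8.89 and 7.755 FPKM in term-diff cells. Leaving out 1 library lost the call of Klrh1 in 6, of Tapbpl in 8 and of H2aj in 5 of 8 fits (adjusted p up to 0.141, 0.156 and 0.164).

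Eno2, the neuronal enolase, fell by 0.78 ± 0.15 (limma adjusted p = 0.0127) and Slc6a12 by 0.89 ± 0.17 (adjusted p = 0.0113) in wild type. Both were low and reached 1 FPKM in stem-like libraries only, with wild-type stem-like values of 1.14 and 1.15 FPKM for Eno2 and 1.18 and 1.3 FPKM for Slc6a12. Slc6a12 had to differ, since it passed the filter through that group alone.

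The remaining Cd69-deficient calls were Ccnd2 and Adipor2, an adiponectin receptor, both lower in term-diff cells. Ccnd2 fell by 1.11 ± 0.11 (limma adjusted p = 0.00102) in Cd69-deficient cells, against -0.38 ± 0.11 in wild type (adjusted p = 0.0683). Adipor2 fell by 0.52 ± 0.12 (adjusted p = 0.0357), from 21.7 and 25.01 FPKM to 16.6 and 15.4 FPKM, against -0.40 ± 0.12 in wild type (adjusted p = 0.0683). The Ccnd2 call held in 8 of 8 leave-one-out fits and the Adipor2 call was lost in 4 (adjusted p up to 0.175).

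**Figure D4:**
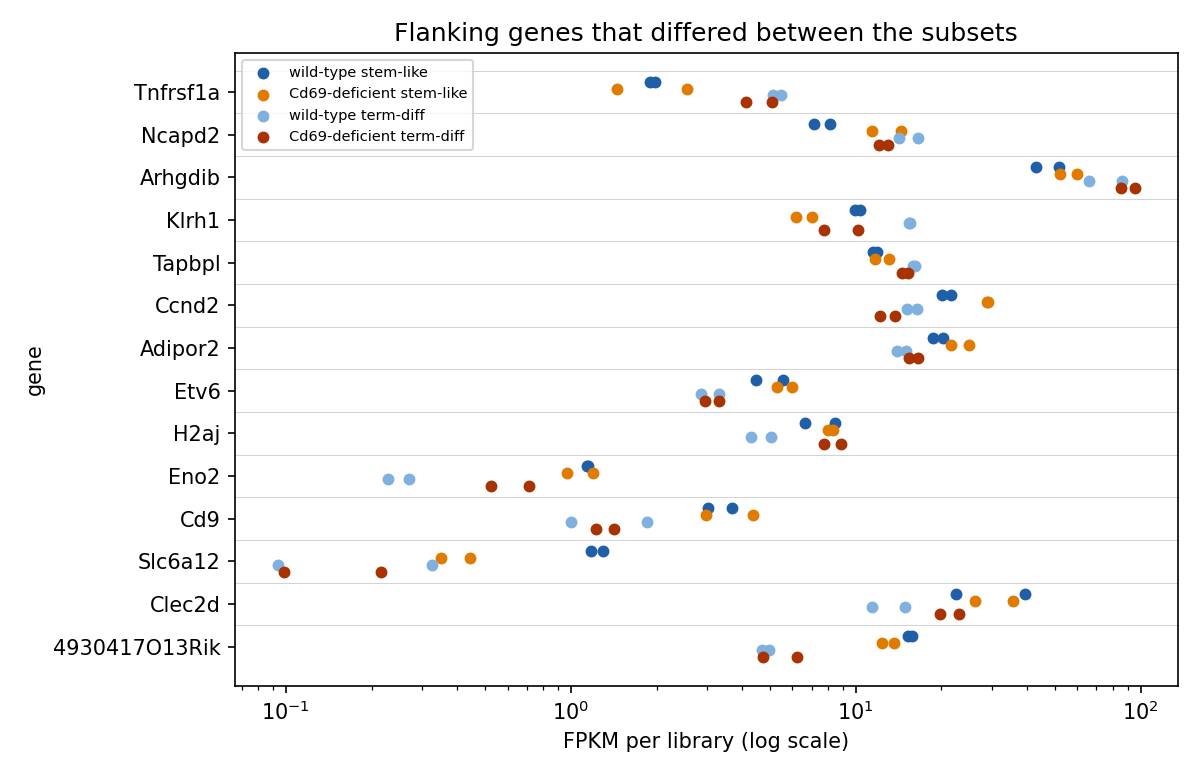
FPKM per library on a log scale of the 14 members called in either subset comparison, 2 points per group, dark and light blue for wild-type stem-like and term-diff, orange and brown for Cd69-deficient stem-like and term-diff. For 4930417O13Rik, Tnfrsf1a, Cd9, Etv6, Arhgdib, Adipor2, Ccnd2, Eno2 and Slc6a12 every stem-like point is apart from every term-diff point. For H2aj the wild-type term-diff libraries stand alone below the rest.

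By role, the members called in a genotype comparison were in none of the 7 role lists. For Klrh1 this reflects how the lists were made, since the C-type lectin list did not hold this lectin-like gene. Among 16 kept surface receptors and signalling genes, 3 were higher and 1 lower in wild-type term-diff cells and 2 were higher and 2 lower in Cd69-deficient ones. Ptpn6, the SHP-1 phosphatase that limits T cell receptor signalling, stood at 47.6 to 53.3 FPKM over all 8 libraries. Wnk1, a kinase of ion balance, ranged from 43.1 to 60.6 FPKM. Neither was called in any comparison.

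Of 13 transcription and chromatin genes, 2 were lower in wild-type term-diff cells (Etv6 and H2aj) and 1 (Etv6) in Cd69-deficient ones. Ybx3 (39.45 to 66.8 FPKM), the remodeller Chd4 (44.2 to 54.1 FPKM), Atf7ip, a partner of the methyltransferase SETDB1 (25.9 to 36.95 FPKM), and the demethylase Kdm5a (8.69 to 10.55 FPKM) were the most abundant. Of 10 cell cycle and repair genes, Ncapd2 was higher in wild-type and Ccnd2 lower in Cd69-deficient term-diff cells. The inhibitor Cdkn1b, p27, ranged from 17.4 to 23.0 FPKM and was called in no comparison.

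Of 5 death and autophagy genes Tnfrsf1a alone was called, and Mlf2 ranged from 14.65 to 22.3 FPKM and the BCL2 family member Bcl2l13 from 2.63 to 3.80 FPKM. None of the 7 kept genes on the RNA processing and translation list was called in any comparison. Among them were the ribosome factor Emg1 (11.6 to 18.5 FPKM), Strap (13.3 to 16.3 FPKM) and the splicing factor Wbp11 (12.9 to 17.5 FPKM). The list also held Phb2 (16.2 to 20.97 FPKM), a prohibitin and not an RNA factor. Of 17 metabolism, organelle and trafficking genes 2 were lower in wild-type term-diff cells (Eno2 and Slc6a12). There the mannose 6-phosphate receptor M6pr ranged from 13.2 to 19.0 FPKM and the proton pump subunit Atp6v1e1 from 8.91 to 14.4 FPKM.

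Cd4, the co-receptor of helper T cells, lies 4.38 Mb from Cd69 and was detected in every library of these CD8+ cells. It stood at 5.52 and 3.04 FPKM in wild-type stem-like, 2.53 and 4.12 FPKM in Cd69-deficient stem-like, 1.38 and 3.83 FPKM in wild-type term-diff and 1.40 and 4.01 FPKM in Cd69-deficient term-diff libraries. The groups overlapped, and no comparison called Cd4. In all, 71 of the 85 members were called in neither subset comparison.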

How the data were processed

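RNA-seq of 8 libraries was used, 2 in each of 4 groups named from the labels. Per the labels' protocols, libraries were made with a low-input stranded total RNA kit and sequenced as single reads (NextSeq500). The authors deposited 1 gene table per library with FPKM, its confidence limits and a status. Tools listed by the submitters' processing notes are Cufflinks 2.2.1, TopHat 1.3.2, Bowtie2 2.3.4 and bcl2fastq 2.20, with build mm10. The annotation and strand setting are not given in the sources used here.

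FPKM was used as deposited, as log2(FPKM + 1), where 2 or more libraries reached 1 FPKM. All 8 libraries entered 1 fit of 4 group means in limma 3.58.1 (R 4.3.3, empirical Bayes with trend, 4 residual and 4.2 prior degrees of freedom). Tests were 2-sided and adjusted over 9782 genes. Implied fragments are (2 × FPKM / (upper limit - FPKM)), squared, and cover counting error only. Locus starts, counted from 0 in the tables, were raised by 1. The fit was tested on simulated data.

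The members and lists were chosen with earlier results of these data known. Named were Cd69, members past the threshold, the 10 smallest p of each genotype comparison, members under 1 Mb, subset calls, and the 4 most abundant of each role list, of which some are left unnamed; further members were named after their values were seen. The labels do not say that equal replicate numbers pair libraries, so the main fit had no replicate block. Alternatives covered scaling, pseudocount, filter, fit, replicate block and leaving out libraries.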

Additional observations from a re-analysis of the deposited data

How the results depend on the processing

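Depth limited the low members most. Pianp in Cd69-deficient cells rested on fewer than 5 implied fragments per library, and 12 members had fewer than 30 everywhere. With 2 libraries per group, leaving one out leaves a lone sample that is assumed to vary like the other groups.

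For Pianp, the averaged fall kept its call in 22 of 22 alternatives that gave a value (limma adjusted p up to 0.0379); a filter of 5 FPKM removed the gene. Over the 8 fits that each left out 1 library, the members called were 0 to 1 in stem-like and 0 to 1 in term-diff cells for genotype, 1 to 2 averaged, 4 to 9 for the wild-type and 2 to 7 for the Cd69-deficient subset comparison, 0 to 1 under 1 Mb, and 18 to 22 with genotypes apart. The last is higher by construction, as fewer libraries overlap less often. Over all genes the share with genotypes apart then ran from 13.6% to 20.2%. The share of all genes called in the subset comparisons was lower in each of these fits than with all libraries.

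The counts below stand beside 1 (stem-like), 1 (term-diff) and 2 (averaged) members called for genotype, and 12 (wild type) and 7 (Cd69-deficient) for subset. An absolute difference of at least 1 left 1 averaged, 3 wild-type and 2 Cd69-deficient (0.225%, 4.04% and 3.32% of all genes). Leaving out both wild-type libraries numbered 2, added after seeing the data, gave 0, 0 and 1 for genotype and 2 in wild type. Equal library sums gave 1 averaged, 0 and 0 for the subsets and 0 under 1 Mb. Of all genes, 0.767% were then called averaged and 1.56% and 0.726% for the subsets. A filter of 5 FPKM, which tests fewer genes, gave 0, 0 and 1 for genotype and 0 from 2.5 to 5 Mb. Of the 47 members that passed that filter, 9 had genotypes apart, against 10.9% of all genes at that filter. No filter gave 0, 0, 1, 5 and 2 (0.0179%, 0.0491%, 0.058%, 3.36% and 2.43% of all genes). Keeping the genes left out by name gave 3, 3 and 8 for genotype. Fitting only the groups compared gave 0 in stem-like cells and 6 in wild type (0.164% and 7.73% of all genes). A pseudocount of 0.1 or of 5 gave 0 in stem-like cells. A robust fit gave 2, 3 and 4 for genotype and 11 in Cd69-deficient cells (0.358%, 0.797%, 1.04% and 11.7% of all genes). A threshold of 0.1 gave 21 and 11 for the subsets, where 19.2% and 14.7% of all genes were called. An untrended fit gave 1 averaged. Voom on implied fragments gave 3, 5, 6, 19 and 12, where 0.44%, 3.29%, 2.22%, 19.1% and 16.5% of all genes were called. Of its genotype calls, 2 of 3 in stem-like, 4 of 5 in term-diff and 4 of 6 averaged were higher in Cd69-deficient cells. Without Klrh1 1 averaged call, 11 wild-type subset calls and 13 members with genotypes apart were left. With the replicate block 0 were called in stem-like cells and 1 averaged. The gap between libraries 1 and 2, correlated across genes between groups, gave values from -0.297 to 0.153. With 1 such gap per group, these correlations cannot decide whether equal numbers mark a shared mouse or day. Except where a sentence says otherwise, the cause was not tested.

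Of single members' values, 10 turned sign, each of them under equal library sums, which moved the median of all genes by -0.39 in stem-like cells, -0.90 in term-diff cells and -0.65 in the average. In stem-like cells these were Ccnd2 (-0.0585), Ybx3 (-0.11) and Gabarapl1 (-0.0244), in term-diff cells Clec2d (-0.34), Grcc10 (-0.64), H2aj (-0.21) and Ptms (-0.69), and averaged Gabarapl1 (-0.29), H2aj (-0.30) and Ptms (-0.45).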
